A study of Mus musculus with 14 samples.

Results

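The Ms4a genes encode small membrane proteins that cross the membrane in 4 segments, and the family includes Ms4a1, which encodes the B cell antigen CD20. Expression of 10 family members was followed in B-1a cells of the peritoneal cavity from mice lacking Bmi1 (Bmi1 KO) and from wild-type (WT) mice. The members were Ms4a1, Ms4a2, Ms4a4a, Ms4a4b, Ms4a4c, Ms4a4d, Ms4a6b, Ms4a6c, Ms4a6d and Ms4a7, and every array probe that is not a control and carries one of these names was taken. This gave 13 probes of the 55681 on the array. The family was chosen by the lower array level of Ms4a4a in Bmi1 KO than in WT cells, so the values of Ms4a4a between genotypes are given as a description, with no test.

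There were 7 Bmi1 KO and 7 WT samples, each on a one-colour mouse array of its own. The study ran 2 experiment sets, and the way sample titles are numbered puts 3 KO and 3 WT samples in set 1 and 4 KO and 4 WT samples in set 2. The labels give no further allele, no age, sex or background strain, no statement that the Bmi1 loss is limited to B cells, and no sorting scheme for the cells. Whether samples are separate mice is not stated either, so p-values reflect the spread between arrays, part of which may be technical, and precision is limited by the 7 arrays of each genotype.

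CD20 sits in the plasma membrane of B cells close to the B cell receptor and is the target of depleting antibodies used in lymphoma and autoimmune disease. Ms4a2 is the beta chain of the high-affinity IgE receptor of mast cells and basophils, which amplifies signalling through Lyn and Syk. The Ms4a4 and Ms4a6 genes are less well understood, and several are known from T cells or macrophages rather than from B cells. Most of the family lies in 1 cluster on mouse chromosome 19. Bmi1 belongs to the chromatin complex PRC1, a Polycomb complex that holds developmental and cell cycle genes silent.

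Signal differed between arrays. A probe is called detected on an array where the scanner software marked it as well above background. The share of probes detected ran from 20.6% to 56.7% on the KO arrays and from 43.5% to 63.3% on the WT arrays, and 4 KO arrays and 0 WT arrays lay under 40%. These dim arrays were KO set 1 replicate 4 and KO set 2 replicates 1, 2 and 3. Levels below are log2 values of the processed signal relative to the 75th percentile of the same array, so a level of 0 is the 75th percentile itself. That percentile ran from 3.63 to 8.22 on the log2 scale among KO arrays and from 7.09 to 7.99 among WT arrays, so a probe whose raw signal is alike everywhere has a higher level on a dim array. The median KO minus WT difference of all 29687 tested probes was 0.32, and 59.8% of them were higher in KO. With levels scaled instead to the probes detected on all 14 arrays that median was -1.04 and every difference was lower by the same amount, so small positive differences below turn negative under that scaling. Taken by the brightest probe of each gene, the 7 B cell markers, among them Cd79a and Pax5, were detected on every array. Another Pax5 probe was detected on 5 of 7 KO and 7 of 7 WT arrays. Of the 6 B-1a markers, taken the same way, between 1 and 6 were detected on a KO array (median 3) and 5 or 6 on a WT array. All 6 were detected on KO set 1 replicates 2 and 3 and KO set 2 replicate 4, which were not dim. The dim arrays detected 3 (KO set 1 replicate 4) and 2, 1 and 3 (KO set 2 replicates 1, 2 and 3). Cd5, the surface protein that defines B-1a cells, was detected on 3 of 7 KO arrays, those that were not dim, and on 6 of 7 WT arrays. The part of array signal in these counts was not tested.

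Ms4a4a, described mainly as a surface protein of macrophages, was detected on every WT array and was at or near background on most KO arrays. Its probe lies at 11467221 to 11467280 of chromosome 19, on the plus strand (mm9, the build of the files). It is the only member probe designed on a predicted RefSeq transcript, and it is shown because the family was chosen by its values. Read in triplets from its first base, it holds no stop triplet before its last, in capitals, and whether this is the coding frame was not examined.
Ms4a4a probe: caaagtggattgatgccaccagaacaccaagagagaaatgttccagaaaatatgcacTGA
The sequence occurs once on the array. Its longest run shared with another member probe was 7 bases, and its best ungapped match to another member probe was 38.3%.

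The unscaled processed signal of Ms4a4a in WT cells was 438, 2090 and 1120 in set 1 and 2260, 2580, 1520 and 1360 in set 2. In KO cells it was 4.68, 18.6 and 9.18 in set 1 and 3.97, 3.99, 6.94 and 356 in set 2. The probe was detected on all 7 WT arrays and on 2 of 7 KO arrays, KO set 1 replicate 3 and KO set 2 replicate 4. The KO sample with 356 came close to the lowest WT sample, and the other 6 KO samples lay far below it.

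On the scaled axis, the level of Ms4a4a was -2.80 ± 2.17 in KO and 3.03 ± 0.94 in WT (SD, n = 7 each). KO levels ran from -5.77 to 1.13 with a median of -3.05, and WT levels from 1.38 to 4.04 with a median of 3.33. The fitted KO minus WT difference was -5.83 (SE 0.70), and 7 of 7 KO arrays lay below all WT arrays. Every KO array lay below every WT array for 0.131% of all tested probes, but the gene was chosen for this contrast, so nothing is read from that share. KO values on the 5 arrays without detection have no order among themselves, and the size of the difference depends on how such dim spots are treated: it was -3.52 with normexp background correction.

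The difference was present in both experiment sets. It was -6.75 (SE 1.05) in set 1, with 2.23 ± 0.90 in WT and -4.53 ± 1.08 in KO (SD, n = 3 each). In set 2 it was -5.13 (SE 0.91), with 3.62 ± 0.35 in WT and -1.51 ± 1.85 in KO (SD, n = 4 each). Within slide 2, which held the 4 KO and 2 of the WT arrays of set 2, it was -5.07. Without the 4 dim KO arrays, the difference was -5.27, with 3 KO arrays left. Of the 3 KO arrays with a share of detected probes in the WT range, 1 did not detect the probe (KO set 1 replicate 2, signal 4.68). Whether fewer cells with the transcript or less transcript per cell lies behind a difference cannot be told apart in bulk samples. This holds for every gene below.

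Markers of other cells were read on the same arrays, since Ms4a4a is known from macrophages. Of 13 macrophage and monocyte markers, 4 to 9 were detected on a KO array and 5 to 13 on a WT array. Their summed level, added up on the linear scale, ran from 10.67 to 1560 in KO and from 13.44 to 183.7 in WT, so the genotypes overlapped. The sum of 1560 was on KO set 2 replicate 2, the array with the smallest share of detected probes, 20.6%. The part of scaling in that sum was not tested. Csf1r and Emr1 of this list were detected on all 14 arrays. Other members were detected on few: Gata6 and Ccr2 on 2 arrays of each genotype, and Timd4 and C1qc on 1 KO and 2 WT arrays each. Lyz2 was detected on 4 KO and 7 WT arrays and Mertk on 0 KO and 2 WT arrays. Of 11 tested probes of this list 0 were called, 7 had a higher and 4 a lower mean level in KO, and the median difference was 0.27 beside 0.32 over all probes. The smallest p belonged to an Emr1 probe with a difference of 3.06 (adjusted p = 0.312), followed by a Cd68 probe with -2.15 (adjusted p = 0.419), Lyz2 with -2.26 (adjusted p = 0.558) and Csf1r with 0.69 (adjusted p = 0.559). The brightest probes of Emr1 and Cd68 gave 1.37 (adjusted p = 0.579, limma) and 0.27 (adjusted p = 0.871, limma), so the sign for Cd68 differed between probes. The B-1a markers Bhlhe41 and Plscr1, with the smallest p of their list, had KO minus WT differences of -4.61 (adjusted p = 0.182) and -3.63 (adjusted p = 0.176). By the brightest probe of each gene, the others were Spn with -1.01, Cd5 with -0.62, Ctla4 with -0.42 and Zbtb32 with 0.20. Of 9 tested B-1a probes 0 were called, 1 had a higher and 8 a lower mean level in KO, with a median difference of -1.40. The part of these markers in the Ms4a4a difference was not tested.

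**Figure D1:**
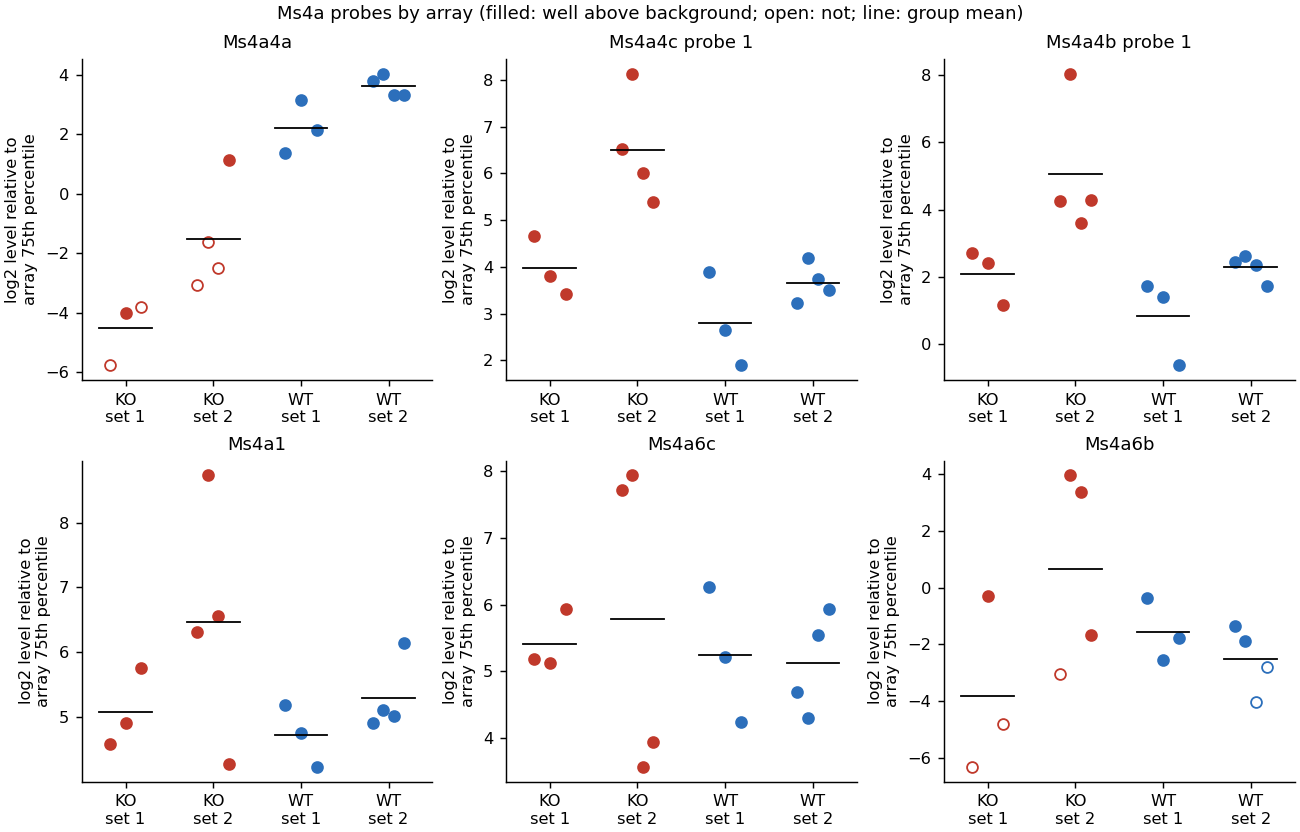
Level of 6 Ms4a probes on each array, as log2 signal relative to the array's 75th percentile, for KO and WT samples of both experiment sets; filled points are detected, open points are not, and the line is the group mean. All 7 KO arrays lie below the WT arrays for Ms4a4a, whereas genotypes overlap for Ms4a1, Ms4a6c and Ms4a6b and 5 of 7 KO arrays lie above all WT arrays for Ms4a4c probe 1 and Ms4a4b probe 1.

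Beside Ms4a4a, 8 member probes of 5 genes passed the filter on dim probes, which asks for detection on 4 or more of the 7 arrays of a genotype. At adjusted p under 0.05, 0 of these 8 differed between the genotypes (limma with Benjamini-Hochberg adjustment over all 29687 probes). Over the whole array 0.0303% of probes were called, 0.00337% higher and 0.0269% lower in KO, so a count of 0 among 8 lies near the background. All 8 had higher mean levels in KO on the 75th percentile scale, beside 59.8% of all probes, while 5 of them turned negative with scaling to the probes detected on all arrays. At unadjusted p under 0.05, 3 of the 8 were higher and 0 lower, namely 2 Ms4a4c probes and 1 Ms4a4b probe, beside 8.18% of all probes higher and 5.38% lower.

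Ms4a1 (CD20) was strongly expressed in both genotypes and did not pass the test. Its probe lies at 11325367 to 11325426 of chromosome 19, on the minus strand. Unscaled signal ran from 2600 to 8940 on KO arrays and from 4780 to 9640 on WT arrays. The level ran from 4.27 to 8.73 in KO (median 5.76) and from 4.23 to 6.15 in WT (median 5.02). Of the KO arrays, 3 lay above all WT arrays, and these 3 were dim arrays of set 2, whereas KO set 2 replicate 4 lay near the lowest WT sample. The level was 5.87 ± 1.53 in KO and 5.05 ± 0.58 in WT (SD, n = 7 each), a difference of 0.82 (SE 0.65, adjusted p = 0.532). Its 95% confidence interval, -0.55 to 2.20, reached below 0. The sign depended on scaling and samples: the difference was -0.54 with levels scaled to the probes detected on all 14 arrays and -0.40 without the dim KO arrays. CD20 transcript was thus detected in KO cells on every array, and no direction of difference held.

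Ms4a4c, a member whose gene neighbours that of Ms4a4a, was measured by 3 probes, which are shown by the sequences that set them apart. Probe 1 lies at 11493486 to 11493545 of chromosome 19. Probe 2, at 11500839 to 11500898, holds 14 GT units in a row, in capitals, and 30 of its bases are shown. Probe 3 lies close by, at 11500973 to 11501032, and all 3 are on the plus strand.
Ms4a4c probe 1: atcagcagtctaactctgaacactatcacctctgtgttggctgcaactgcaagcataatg
Ms4a4c probe 2 repeat: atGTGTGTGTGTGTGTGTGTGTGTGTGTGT

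With probe 1, KO samples read 4.67, 3.81 and 3.43 in set 1 and 6.52, 8.13, 6.02 and 5.38 in set 2. WT samples read 3.88, 2.64 and 1.89 in set 1 and 3.23, 4.18, 3.74 and 3.51 in set 2. All 4 KO samples of set 2 lay above all WT samples, as did 1 of set 1, while the other KO samples of set 1 lay within the WT range. The level was 5.42 ± 1.64 in KO and 3.30 ± 0.79 in WT (SD, n = 7 each), a difference of 2.12 (SE 0.61, unadjusted p = 0.00299, adjusted p = 0.237, limma). Its 95% confidence interval of 0.83 to 3.42 is not corrected for the number of probes tested. All KO arrays lay above all WT arrays for 0 of the 8 member probes and for 0.128% of all tested probes. The difference kept its sign under each alternative run, from 0.77 with levels scaled to the probes detected on all arrays to 2.12, and was 3.03 within slide 2 and 1.55 without the dim KO arrays.

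Probe 3 of Ms4a4c gave a difference of the same sign with more spread. KO levels ran from 1.32 to 6.48 (median 3.87) and WT levels from -1.85 to 2.95 (median 1.56). Of 7 KO arrays, 5 lay above all WT arrays, and the KO arrays within the WT range were KO set 1 replicate 3 and KO set 2 replicate 1. The level was 3.90 ± 1.69 in KO and 1.38 ± 1.65 in WT (SD, n = 7 each), a difference of 2.52 (SE 0.88, unadjusted p = 0.0114, adjusted p = 0.311). The WT spread rested largely on WT set 2 replicate 4, whose unscaled signal was 37.6 against 388 to 1170 on the other WT arrays.

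Probe 2 of Ms4a4c stood apart from the others. Its unscaled signal lay between 237000 and 352000 on all 14 arrays, a 1.49-fold range, and it was the fifth brightest of all probes. Unscaled log2 signal differed by 0.10 between the genotypes, whereas the scaled level differed by 1.20 (SE 0.62, adjusted p = 0.38), with 10.68 ± 0.34 in WT and 11.88 ± 1.74 in KO (SD, n = 7 each). For probes 1 and 3 the unscaled differences were 1.02 and 1.42. Probe 2 of Ms4a4c is 1 of 52 probes on the array with at least 10 GT or TG units, a set chosen after its value was seen. All 52 were detected on all 14 arrays, with a median mean signal of 222000 against 17.2 over all probes. Their highest array exceeded their lowest by a median of 1.53-fold, against 10.9-fold for all probes detected on every array, and 0 of the 52 were called. Representing a gene by its brightest probe takes probe 2 for Ms4a4c, and probes 1 and 3 then drop out.

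**Figure D2:**
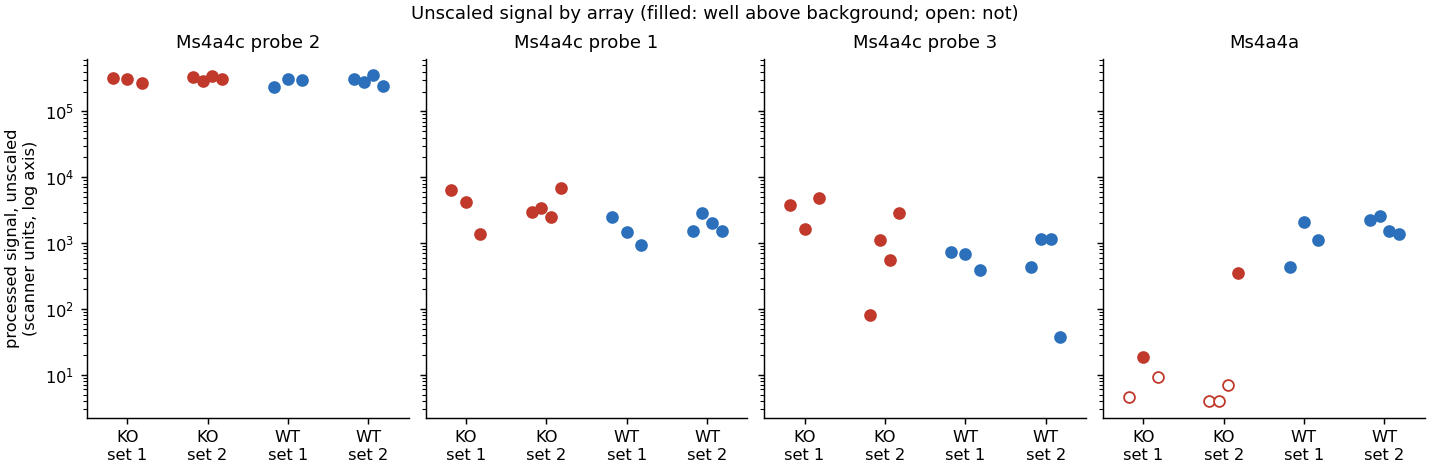
Unscaled processed signal (log axis, scanner units) of the 3 Ms4a4c probes and of Ms4a4a on each array; filled points are detected and open points are not. Ms4a4c probe 2 stays between 237000 and 352000 on every array, while probes 1 and 3 vary more and Ms4a4a drops to under 20 units on 6 of 7 KO arrays.

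Ms4a4b, known from T cells, where it modulates activation, was read by 2 probes on the plus strand, at 11532299 to 11532358 and at 11537629 to 11537688 of chromosome 19. Probe 1 was detected on every array. KO samples read 2.70, 2.41 and 1.17 in set 1 and 4.26, 8.05, 3.59 and 4.29 in set 2. WT samples read 1.73, 1.41 and -0.64 in set 1 and 2.44, 2.63, 2.34 and 1.72 in set 2. As with Ms4a4c probe 1, the 4 KO samples of set 2 and 1 of set 1 lay above all WT samples. The difference was 2.12 (SE 0.73, unadjusted p = 0.0103, adjusted p = 0.309), with 1.66 ± 1.11 in WT and 3.78 ± 2.18 in KO (SD, n = 7 each), and it kept its sign under each alternative run, with a lowest value of 0.76. Within slide 2 it was 2.66.

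The other Ms4a4b probe was detected on 4 of 7 arrays of each genotype. Its level ran from -4.03 to 2.16 in KO and from -6.18 to 1.36 in WT, and the difference was 1.34 (SE 1.20, adjusted p = 0.583). The ranges overlapped almost fully. Since Ms4a4b is known from T cells, their markers were set beside it. Of 10 T cell markers, 3 to 8 were detected on a KO array and 5 to 9 on a WT array, and their summed level ran from 4.455 to 70.04 in KO and from 4.109 to 9.724 in WT. The sum of 70.04 was on KO set 2 replicate 2, a dim array where 3 of the 10 were detected. The part of scaling in that sum was not tested. Cd3e was detected on 4 KO and 6 WT arrays, and Cd3d on 2 arrays of each genotype. Of 8 tested probes of this list 0 were called, 5 had a higher and 3 a lower mean level in KO, and the median difference was 0.56 beside 0.32 over all probes. Those with the smallest p were Cd4 with 1.08 (adjusted p = 0.37), Cd8a with 0.85 (adjusted p = 0.474), Thy1 with 1.09 (adjusted p = 0.572) and Cd28 with -1.09 (adjusted p = 0.708). Their part in the Ms4a4b values was not tested.

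The ratio of 2 probes on one array does not depend on the scaling, although its absolute value mixes in how well each probe binds, so only its difference between genotypes is read. The log2 ratio of Ms4a4c probe 1 over Ms4a1 was higher in KO by 1.30, and 5 of 7 KO arrays lay above every WT array. That of Ms4a4b probe 1 over Ms4a1 was higher by 1.30 as well, and 4 of 7 KO arrays lay above every WT array. The log2 ratio of Ms4a4a over Ms4a4c probe 1 differed by -7.95 between KO and WT, and 7 of 7 KO arrays lay below all WT arrays. That of Ms4a4a over Ms4a1 differed by -6.65, and 6 of 7 KO arrays lay below all WT arrays. Ms4a4a was chosen for this contrast and was detected on 2 of 7 KO arrays, so nothing is read from these counts. The log2 ratio of Ms4a6c over Ms4a1 differed by -0.36, with genotypes overlapping.

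**Figure D3:**
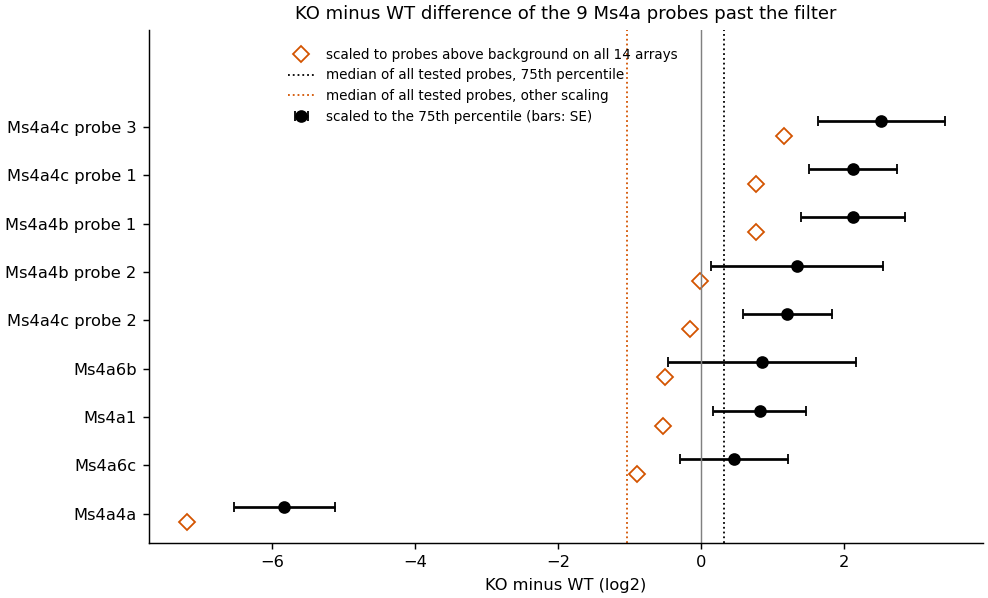
KO minus WT difference (log2) of the 9 Ms4a probes that passed the filter, with levels scaled to the 75th percentile (filled, bars are SE) and to the probes detected on all arrays (open), beside the median of all tested probes under each scaling (dotted). Ms4a4a lies at -5.83 and -7.19, Ms4a4c probes 1 and 3 and Ms4a4b probe 1 stay above 0 under both scalings, and the other 5 probes cross 0.

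Promoters of Ms4a4b and Ms4a4c had the highest percent identity of the member pairs compared. The 250 bases upstream of the annotated start were taken from RefSeq (GRCm38.p6) for 9 promoters of 8 member genes. These 2 were 68.8% identical and shared a run of 20 bases, in capitals, that only 2 of 32851 promoters in the table hold. The promoter of Ms4a4a, which lies beside them, is printed for comparison, and it was 48.4% identical to that of Ms4a4c with a longest shared run of 8 bases. In that build the stretches are chr19:11443308-11443557 for Ms4a4b, chr19:11407411-11407660 for Ms4a4c and chr19:11375238-11375487 for Ms4a4a, all on the plus strand.
Ms4a4b promoter: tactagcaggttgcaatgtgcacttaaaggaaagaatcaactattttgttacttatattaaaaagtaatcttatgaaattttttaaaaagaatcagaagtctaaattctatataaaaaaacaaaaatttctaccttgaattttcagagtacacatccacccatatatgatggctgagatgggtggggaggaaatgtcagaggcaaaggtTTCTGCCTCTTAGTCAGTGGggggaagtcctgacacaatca
Ms4a4c promoter: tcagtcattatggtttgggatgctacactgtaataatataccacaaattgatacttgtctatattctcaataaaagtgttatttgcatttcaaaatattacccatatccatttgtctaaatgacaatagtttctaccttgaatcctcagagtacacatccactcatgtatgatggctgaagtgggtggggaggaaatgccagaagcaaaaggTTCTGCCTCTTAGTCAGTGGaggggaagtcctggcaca
Ms4a4a promoter: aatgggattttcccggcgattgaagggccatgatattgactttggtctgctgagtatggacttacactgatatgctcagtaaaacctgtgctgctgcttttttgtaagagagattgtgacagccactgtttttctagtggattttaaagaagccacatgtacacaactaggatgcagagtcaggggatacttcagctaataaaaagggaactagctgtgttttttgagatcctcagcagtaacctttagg
Apart from this pair and the Ms4a6b and Ms4a6c pair below, which shares a longer run at another offset, identity between member promoters was 41.3% to 50.4% and shared runs were 6 to 9 bases long. These are descriptions of sequence, and no binding was measured.

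Ms4a6c and Ms4a6b, known from macrophages and T cells respectively, showed no difference that passed the test. The Ms4a6c probe, at 11545580 to 11545639 of chromosome 19 on the plus strand, was detected on every array. Its level ran from 3.57 to 7.94 in KO (median 5.18) and from 4.24 to 6.26 in WT (median 5.22). The highest and the lowest samples were both KO samples of set 2. The level was 5.63 ± 1.70 in KO and 5.17 ± 0.79 in WT (SD, n = 7 each), a difference of 0.46 (SE 0.75, adjusted p = 0.783) with a 95% confidence interval of -1.13 to 2.05. Its unscaled signal was 464 on KO set 2 replicate 3, against 2510 to 12900 on the other 13 arrays.

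The Ms4a6b probe, at 11604834 to 11604893 of chromosome 19 on the plus strand, was detected on 4 of 7 KO and 5 of 7 WT arrays. In KO it read -6.32, -0.30 and -4.81 in set 1 and -3.04, 3.97, 3.37 and -1.66 in set 2. WT levels ran from -4.02 to -0.36. Of the KO samples, 3 lay above all WT samples, while the lowest KO and WT values were on arrays without detection and have no order. The difference was 0.85 (SE 1.32, adjusted p = 0.769). It was -2.24 (SE 1.81) in set 1 and 3.17 (SE 1.57) in set 2, and the dependence on the set was 5.42 (SE 2.39, unadjusted p = 0.0387, adjusted p = 0.876).

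For none of the 8 tested member probes beside that of Ms4a4a did the difference depend on the set at an adjusted p under 0.05 (limma), and 0 of all probes were called so. Unadjusted p for this was under 0.05 for 1 of the 8, Ms4a6b, beside 5.37% of all probes. Within set 1 and within set 2, 0 of the 8 were called, beside 0.0236% and 0.0135% of all probes. The 3 probes that were higher in KO at unadjusted p under 0.05 had larger differences in set 2 for Ms4a4c probe 1 (2.85 against 1.16) and Ms4a4b probe 1 (2.77 against 1.26), and similar ones for Ms4a4c probe 3 (2.59 against 2.42). Set 2 also held 3 of the 4 dim KO arrays, and the part of array signal in these values was not tested.

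Upstream of Ms4a6b and Ms4a6c the RefSeq sequence shares a run of 48 bases, held by 2 of 32851 promoters and shown in capitals because it was the longest run shared by any pair of member promoters. The stretches are chr19:11518411-11518518 and chr19:11469289-11469367 (GRCm38.p6, plus strand).
Ms4a6b promoter stretch: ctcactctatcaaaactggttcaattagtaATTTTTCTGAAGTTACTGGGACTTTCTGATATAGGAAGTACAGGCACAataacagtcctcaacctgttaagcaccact
Ms4a6c promoter stretch: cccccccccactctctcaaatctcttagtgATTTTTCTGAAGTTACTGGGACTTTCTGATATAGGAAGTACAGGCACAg

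Ms4a2, Ms4a4d, Ms4a6d and Ms4a7 did not pass the filter on dim probes and were not tested. Ms4a2, the IgE receptor beta chain, was detected on 0 of 14 arrays, with a signal of 3.52 to 9.97 (11691701 to 11691760 of chromosome 19, minus strand). Ms4a7, known from the monocyte and macrophage lineage, was likewise detected on 0 of 14 arrays, with a signal of 3.46 to 13.3 (11395903 to 11395962, minus strand). Over the array, 16.7% of all probes were detected on 0 arrays and 12.7% on all 14. Ms4a6d, also described in macrophages, was detected on 1 array of each genotype, KO set 2 replicate 4 and WT set 2 replicate 2 (11661426 to 11661485, minus strand). Ms4a4d was detected on 1 KO and 2 WT arrays, all in set 1 (11629387 to 11630711, plus strand, a span longer than its 60 bases because its ends lie apart in the genome). For these 4 genes the arrays give a bound near background and no difference.

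Partners of Ms4a2 in the IgE receptor were partly expressed, and none passed the test. Fcer1a, the IgE-binding chain, was detected on 1 array of each genotype. Fcer1g, the signalling chain that other Fc receptors use too, had a level of 1.37 ± 4.52 in KO and 1.31 ± 1.88 in WT (SD, n = 7 each). Lyn, a kinase that B cells use downstream of their receptor, had a level of -1.17 ± 3.47 in KO and 0.995 ± 0.775 in WT (SD, n = 7 each), a difference of -2.17 (SE 1.11, adjusted p = 0.378). Syk, the kinase after Lyn, differed by -1.92 (SE 1.14, adjusted p = 0.415). These values are those of the probe with the smallest p for each gene. Of the 4 tested probes of this list, which cover 3 genes, 2 had a higher and 2 a lower mean level in KO. Their median difference was -0.93, beside 0.32 over all probes, with 0 called higher and 0 lower. Of 8 mast cell markers, Kit was detected on 1 KO and 0 WT arrays, Cpa3 on 2 of each genotype, Tpsab1 on 0 and Tpsb2 on 6 KO and 7 WT arrays. The mast cell markers summed to 0.9737 to 30.48 in KO and 2.022 to 12.63 in WT. The sum of 30.48 was on KO set 2 replicate 2, a dim array where 1 of the 8 was detected.

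Of 10 further Ms4a genes on the array, counting the related Tmem176a and Tmem176b, 3 genes had a tested probe and none passed the test. Their 4 tested probes all had higher mean levels in KO on the 75th percentile scale, with a median of 1.25 that is smaller than the shift between the scalings. Ms4a5, whose probe lies between those of Ms4a1 and Ms4a7, was detected on all 14 arrays with a difference of 1.26 (SE 0.61, adjusted p = 0.371), with -0.05 ± 0.48 in WT and 1.21 ± 1.18 in KO (SD, n = 7 each). Of its KO arrays, 5 lay above all WT arrays. A second Ms4a5 probe was detected on 0 arrays, so the gene's probes disagreed on detection. Tmem176a differed by 2.50 (SE 1.67, adjusted p = 0.46) and Tmem176b by 1.25 (SE 0.93, adjusted p = 0.505), each with wide spread. Ms4a3, Ms4a15 and Ms4a18 were detected on 0 arrays.

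Among 27 B cell surface genes, which share the membrane with CD20, 0 of 38 tested probes passed in either direction. Of these probes 29 had a higher and 9 a lower mean level in KO, beside 59.8% of all probes higher. Their median difference was 0.88, beside 0.32 over all probes. With levels scaled to the probes detected on all arrays, every difference was lower by the same amount, and the all-probe median was -1.04. The list median was smaller than that shift, so no direction is read from these counts. Tnfrsf13c, the BAFF receptor that sustains mature B cells, had the smallest p, with a level of 5.61 ± 2.12 in KO and 2.28 ± 0.80 in WT (SD, n = 7 each) and a difference of 3.33 (SE 0.83, adjusted p = 0.197). Of its KO arrays, 6 lay above all WT arrays. Cd72, an inhibitory co-receptor, differed by 2.83 (SE 1.22, adjusted p = 0.361), Cd81, a tetraspanin, by 2.02 (SE 0.85, adjusted p = 0.357) and Cd38, an ecto-enzyme, by 1.61 (SE 0.63, adjusted p = 0.34). The CD20 difference of 0.82 lay close to the median of this list.

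The genes around the cluster were then read for position. Within 1 Mb of the Ms4a4a probe, 33 genes that are no members had 36 tested probes, of which 0 were called, 21 had a higher and 15 a lower mean level in KO, and the median difference was 0.17. That split is near the 59.8% of all probes that were higher in KO. The tested member probes nearest to that of Ms4a4a were those of Ms4a4c, Ms4a4b and Ms4a6c. All had higher mean levels in KO on the 75th percentile scale. With the other scaling Ms4a6c, Ms4a4b probe 2 and Ms4a4c probe 2 lay below 0. The probe of Ms4a7, nearer than that of Ms4a6c, was detected on 0 arrays and was not tested. Vps37c, a subunit of the ESCRT-I sorting complex whose probe lies 679 kb away, had the smallest p among these genes. Its level was -3.62 ± 1.73 in KO and 0.11 ± 0.68 in WT (SD, n = 7 each), a difference of -3.73 (SE 0.69, adjusted p = 0.0898), and 7 of 7 KO arrays lay below every WT array. The same held for 0.131% of all tested probes. Vps37c was detected on 1 KO and all WT arrays, at signals of 92.3 to 294 in WT and 2.83 to 75 in KO. With levels scaled to the probes detected on all arrays it passed the threshold (-5.09, SE 0.76, adjusted p = 0.0237). Under that scaling 134 of all probes were called, 133 of them lower in KO, against 9 with the 75th percentile.

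Other genes near the cluster differed less. Oosp1, an oocyte-secreted protein gene, differed by -2.30 (SE 0.87, adjusted p = 0.332), Patl1, a factor of messenger RNA decay, by -2.26 (SE 0.89, adjusted p = 0.341), and Ddb1, a DNA damage binding protein, by 1.95 (SE 0.88, adjusted p = 0.367). Cd5, which lies within the same window, had a level of -1.43 ± 1.27 in KO and -0.80 ± 1.57 in WT (SD, n = 7 each), a difference of -0.62 (adjusted p = 0.704).

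**Figure D4:**
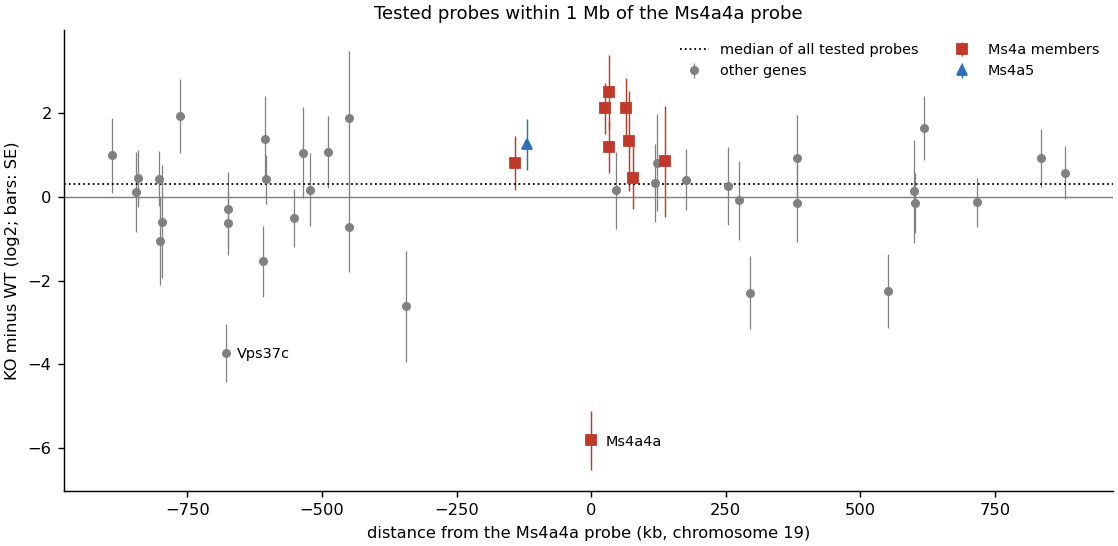
KO minus WT difference (log2, bars are SE) of tested probes within 1 Mb of the Ms4a4a probe on chromosome 19, by distance in kb; squares are Ms4a members, the triangle is Ms4a5, circles are other genes and the dotted line is the median of all tested probes. Ms4a4a at -5.83 stands among member probes that lie above 0 on the 75th percentile scale, and Vps37c at -3.73 is the lowest of the other genes.

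The genes whose pattern over the 14 arrays was most like that of Ms4a4a were sought among 12917 genes with a symbol, each by its brightest probe. By Pearson's r they included Opn4 (0.97), Agbl1 (0.94), Rlim (0.92) and Nup210 (0.92). Spearman's rho was 0.87, 0.87, 0.91 and 0.85 in the same order. Opn4 encodes melanopsin, Rlim a ubiquitin ligase and Nup210 a nuclear pore protein. These 4 lay on other chromosomes (14, 7, X and 6), were detected on every WT array and on 2 or 3 KO arrays, and differed by -5.99 to -3.19. The points share their genotype grouping and their array signal, so these values describe likeness and carry no p.

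For Ms4a1 the nearest patterns were those of Trmt112 (0.97), Gm5643 (0.96), Rdbp (0.96), Puf60 (0.96) and Dgkd (0.96), with Spearman's rho between 0.75 and 0.92. Puf60 is a splicing factor, Dgkd a diacylglycerol kinase, Trmt112 a partner of methyltransferases and Rdbp a subunit of the negative elongation factor. All 5 were detected on every array, and Trmt112 shares chromosome 19 with Ms4a1. Their KO minus WT differences ran from 0.65 to 1.96. The highest Ms4a1 level, 8.73, was on KO set 2 replicate 2, whose 75th percentile of 3.63 was the lowest of all arrays. These values too describe likeness and carry no p, and the part of array scaling in them was not tested.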

How the data were processed

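Per the file headers, each array was scanned to spot intensity by Agilent Feature Extraction, release 10.7.3.1, with mm9 positions and surrogate values for dim spots. The scanner output's other columns, marks of 0 or 1 for spots well above background, saturated or outlying, are deposited by the authors. A deposited table of log2 values with 1 distribution for every column served as an alternative, and the tool behind it is not given in these sources.

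Levels were log2 processed intensity scaled to the 75th percentile of non-control spots on the array, and were tested with limma 3.58.1 in R 4.3.3 (lmFit and eBayes on 14 arrays, experiment set as covariate, two-sided, Benjamini-Hochberg adjustment over 29687 probes, threshold 0.05). Outlier spots were left out. Kept probes were detected on 4 or more of 7 arrays of a genotype, and 9 of 13 member probes passed. Member probes had 0 saturated and 0 outlier spots, and 0 arrays were identical. The script was tested on simulated data. Per the file headers set 1 filled slide 1, set 2 filled slides 2 and 3, and each slide was 1 scan.

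The members and gene lists were chosen with earlier results of these data known. Named were all members, up to 4 genes of each other list by smallest p, and the 5 genes most like Ms4a4a and Ms4a1 over the arrays. Some genes that this rule names are not reported here. Other markers, Cd5, Ms4a3, Ms4a15, Ms4a18 and the GT repeat probes were chosen after their values were seen. NK cell, neutrophil and eosinophil markers were also read: Prf1 and Ly6g were detected on all 14 arrays, and S100a8, Epx and Eomes on 0. All 10 member symbols matched RefSeq, as did the accessions of 11 of the 13 probes; names follow the array design and may be outdated. Sequences came from the deposited probe columns and RefSeq and were compared with Biopython 1.88 in Python 3.11.15; figures used matplotlib 3.10.9. Alternatives changed scaling, background correction, filter, covariates, samples and values.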

Additional observations from a re-analysis of the deposited data

Results flagged for a closer look

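Ms4a4b probe 1 read -0.64 on WT set 1 replicate 4, below every other WT array. Within the 7 WT arrays its gap to the nearest sample, divided by the range, was 0.627, above the critical value for 7 samples. This was 1 of 26 groups of member values examined, where chance gives about 1.3.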

How the results depend on the processing

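Ms4a4a kept its direction under the 12 alternatives run and without each array in turn, with -6.36 to -5.51 when one array was left out. It was -7.19 with the 75th percentile taken over probes detected on all arrays, called common-probe scaling here, and -3.52 with normexp background correction, which adds an offset of 50 to every spot. No tested probe of the other members passed under any of these settings. Over all probes the count of 9 called became 134 with common-probe scaling (1 higher and 133 lower, against 1 and 8), 26 with quantile normalization, 26 with the deposited values, 21 when signal was required on all 7 arrays of a genotype, 5 with 1 probe per gene and 5 without the dim KO arrays. Leaving out one array gave 5 to 65, with 65 without KO set 1 replicate 3 and 37 without KO set 2 replicate 4; the cause was not tested. The all-probe median moved from 0.32 to -1.04 with common-probe scaling, and member differences relative to it stayed the same. Signs turned as follows, and the cause was not tested. With common-probe scaling Ms4a1 was -0.54, Ms4a4b probe 2 -0.015, Ms4a4c probe 2 -0.15, Ms4a6b -0.51 and Ms4a6c -0.90, and 1 gene of the other lists, Vps37c, was called. With quantile normalization Ms4a1 was -0.54 and Ms4a6c -0.85, with the deposited values -0.52 and -0.84, and with normexp Ms4a6c was -0.087. Without the dim KO arrays Ms4a1 was -0.40, Ms4a4c probe 2 -0.13, Ms4a6b -0.70 and Ms4a6c -0.52. Same-numbered KO and WT arrays did not deviate together (r from -0.22 to 0.19), so the numbers were not taken as pairs; with the replicate block 8 probes were called, 0 of them other Ms4a members, and Ms4a4a differed by -5.83. With slide as a block it differed by -5.96. Members at background on most arrays have only a bound.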
